A study of Mus musculus with 12 samples.

Results

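Cytosolic ribosomal protein genes encode the proteins that join ribosomal RNA to form the ribosome. They were taken as every mouse gene whose symbol is Rpl or Rps followed by a number, together with Rplp0, Rplp1, Rplp2 and Rpsa, leaving out the Rps6k kinases and pseudogene symbols. A gene entered where the array had a probe set naming it alone. That gave 48 of 12393 genes: 20 of the large subunit, 20 of the small subunit, 2 of the P stalk (Rplp0 and Rplp2) and 6 paralogs (Rpl22l1, Rpl39l, Rpl3l, Rpl7l1, Rps27l and Rps4l). Rplp1, Rpl5, Rps27a, Rpl36al, Rps19bp1 and Rpl32 had no such probe set and are not analysed here.

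The samples were 12 pools of total RNA from scraped jejunal epithelium of male mice aged 6 to 8 weeks, each pool made from 3 mice and hybridised to 1 Affymetrix 430A array. Wild-type C57BL/6 mice and mice labelled POR-null each gave 3 pools on the control diet and 3 on the quercetin diet. POR is the cytochrome P450 reductase, which passes electrons to microsomal P450 enzymes. All groups ate the soya-free powdered RM3 (E) diet for 14 days of adaptation. The quercetin groups then received 7 mg of this plant flavonoid per mouse, as 6.2 g per kg of diet, and all tissue was taken after 24 h. The labels name neither the POR allele nor the tissue in which it is deleted, and the POR gene itself is not analysed here. Whether these jejunal samples lacked POR was thus not tested. They give C57BL/6 as the strain of all samples and mice housed 3 per cage, without saying whether a pool was a cage, so pool and cage cannot be told apart. P-values set a difference against the spread between these pools, not between single mice.

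Values are log2 intensities, so a difference of 1 would be a doubling. Array medians lay between 5.94 and 6.01, and arrays correlated at 0.991 to 0.995 within groups and 0.989 to 0.995 between them over all probe sets. The number of arrays limits the precision. Enterocyte markers were among the brightest probe sets (Fabp2, a fatty acid carrier, had a mean of 13.61 and Vil1, the brush border protein villin, 12.21), as the tissue label has it. The smooth muscle list, which marks the wall under the scraped layer, stood high in wild-type control pool 3 (0.786 above its genes' means) and POR-null control pool 1 (0.552 above).

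A ribosome joins a small subunit, which holds and decodes the mRNA, to a large subunit, which forms the peptide bond and feeds the chain into an exit tunnel. The P stalk on the large subunit recruits and activates elongation factors. Vertebrate ribosomal protein mRNAs begin with a C followed by a run of pyrimidines, the 5′ terminal oligopyrimidine (TOP) motif, through which mTOR signalling sets how well they are translated. In the intestine, dividing crypt cells carry a high load of ribosome production, while villus enterocytes are the more numerous cells. In bulk tissue, fewer cells of a type and less RNA per cell cannot be told apart.

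The first 20 transcribed bases of 8 members, after 10 bases before the start, show how these promoters are built. They are the 4 members with the smallest p in the wild-type diet comparison, 2 with a start that fits the TOP motif (Rps18, and Rps27, chosen after its sequence was seen) and 2 paralogs. Sequences are from RefSeq (GRCm38.p6), 5′ to 3′ on the gene's strand, with the longest run of C and T in capitals and the start at the base after the first 10.
Rpl27a (chr7:109519185-109519214, plus strand): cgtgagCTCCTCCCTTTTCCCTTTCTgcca
Rpl10a (chr17:28328461-28328490, plus strand): gCCCCCCCagcggccgcaaactgcagcgcc
Rps9 (chr7:3704031-3704060, plus strand): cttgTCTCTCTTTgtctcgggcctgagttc
Rpl13a (chr7:45128726-45128755, minus strand): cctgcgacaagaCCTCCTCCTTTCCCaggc
Rps18 (chr17:33955646-33955675, minus strand): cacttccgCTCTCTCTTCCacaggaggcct
Rps27 (chr3:90213629-90213658, minus strand): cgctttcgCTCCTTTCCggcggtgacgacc
Rps27l (chr9:66946076-66946105, plus strand): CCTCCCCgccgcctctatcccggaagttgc
Rpl7l1 (chr17:46782637-46782666, minus strand): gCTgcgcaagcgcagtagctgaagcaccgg

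The run in Rpl27a spans 20 bases across the start, whereas the longest run in Rpl7l1, a paralog that works in ribosome assembly, has 2 bases. RefSeq's promoter table held 42 of the 48 members. A C at the annotated start followed by 4 more pyrimidines stood in 8 of the 42 (19.0%), against 2.49% of 27025 genes. A pyrimidine run of at least 7 in the 30-base window stood in 22 (52.4%), against 17.9% of genes. CCGGAAG, the core of sites bound by ETS-family factors, stood on either strand within 300 bases in 21 of the 42, against 9.12%. These 3 features were chosen after other values had been seen, and a match is a description of letters, not of a site in use. Annotated starts can be off by several bases.

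The quercetin diet was first compared with the control diet in wild-type mice, which asks whether 1 day of the flavonoid alters gene expression in the gut lining. No member passed the test (adjusted p under 0.05 by limma with Benjamini-Hochberg adjustment over all 22626 probe sets), and 0.0133% of all probe sets did. Nearly all members nevertheless had higher mean values on quercetin: 43 of 48 lay above 0, with a median log2 difference of 0.168 (interquartile range 0.106 to 0.288), where 57.1% of all genes lay above 0 with a median of 0.02. An unadjusted p under 0.05 was reached by 19 members in the higher direction, where 4.33% of genes reached it, and by 0 in the lower direction, where 4.54% did. 

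**Figure D1:**
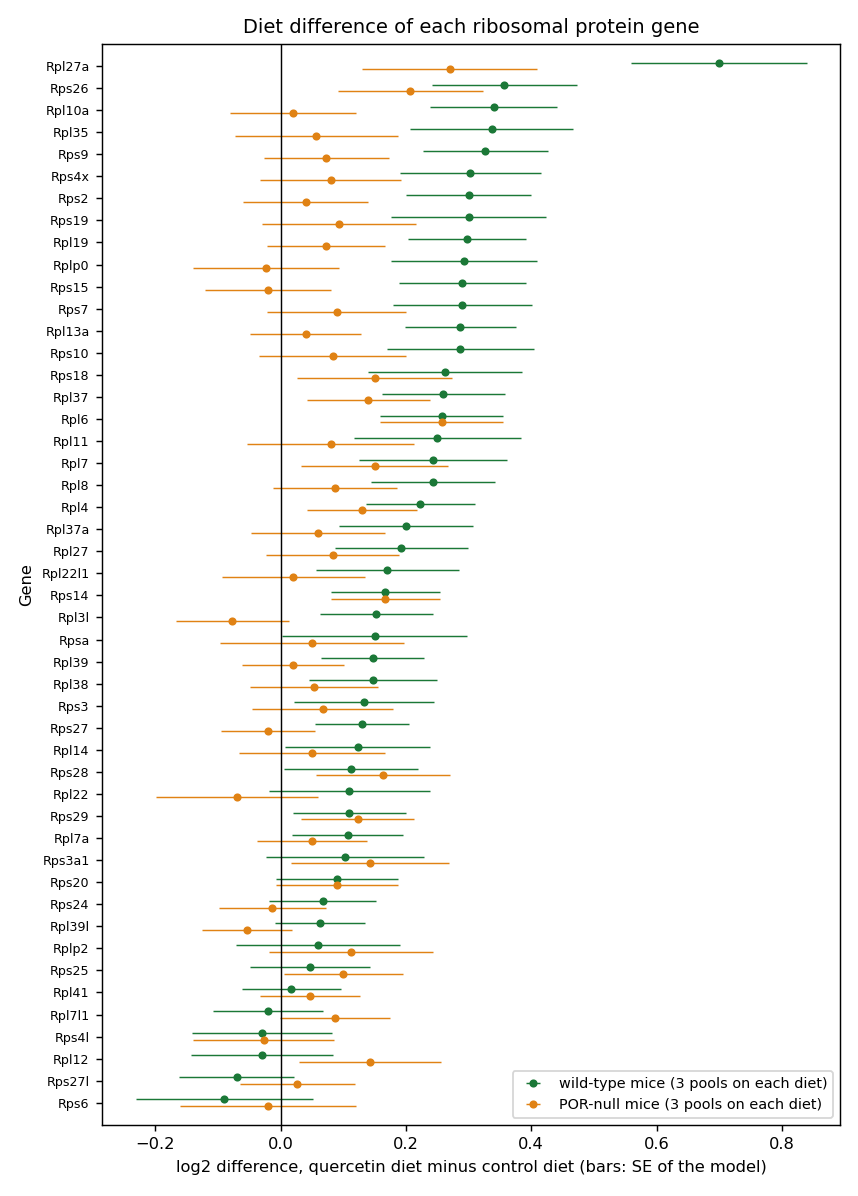
The log2 difference between the quercetin and the control diet is plotted for each of the 48 genes, sorted by the wild-type value, in wild-type mice (green) and POR-null mice (orange); bars are the SE of the model. Of the wild-type points 43 lie above 0, from -0.09 for Rps6 to 0.7 for Rpl27a, and of the POR-null points 39 lie above 0.

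The largest difference was that of Rpl27a, a large subunit protein. Its wild-type control pools had log2 intensities of 7.23, 7.10 and 6.57, and its wild-type quercetin pools 7.51, 7.87 and 7.62. All 3 quercetin pools lay above all 3 control pools, by a mean of 0.70 ± 0.14 (SE, n = 3 pools per diet), a 1.62-fold difference. Its adjusted p was 0.191 by limma, the smallest of all members. A dimmer probe set for Rpl27a, at a mean of 4.48, differed by 0.08 ± 0.078. Leaving out control pool 3, its lowest, left a difference of 0.50.

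Rpl10a, the protein of the ribosome's L1 stalk, had 10.47, 10.23 and 10.30 in the wild-type control pools and 10.47, 10.78 and 10.77 on quercetin. The first pool of each diet had the same value, and the other two quercetin pools were higher (0.34 ± 0.101, adjusted p = 0.37 by limma). Rps9, a small subunit protein, had 9.87, 9.73 and 9.98 on the control diet and 10.01, 10.30 and 10.25 on quercetin, without overlap (0.33 ± 0.1, adjusted p = 0.374 by limma). Its other probe sets differed by -0.17 ± 0.205 (an _x_at type with a mean of 8.45) and 0.01 ± 0.101 (mean 4.43). Rpl13a, known for leaving the ribosome to silence inflammatory mRNAs in myeloid cells, had 10.85, 10.66 and 10.95 on the control diet and 10.96, 11.15 and 11.21 on quercetin. Its groups touched without overlapping, at 10.95 and 10.96 (0.29 ± 0.089, adjusted p = 0.38 by limma). Its other probe sets differed by 0.32 ± 0.105 and 0.15 ± 0.096 (both _x_at) and by -0.20 ± 0.176 (mean 6.25). In all, 7 members had quercetin pools above every control pool (Rpl13a, Rpl27a, Rpl4, Rps2, Rps27, Rps7 and Rps9), where 6.85% of genes did.

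**Figure D2:**
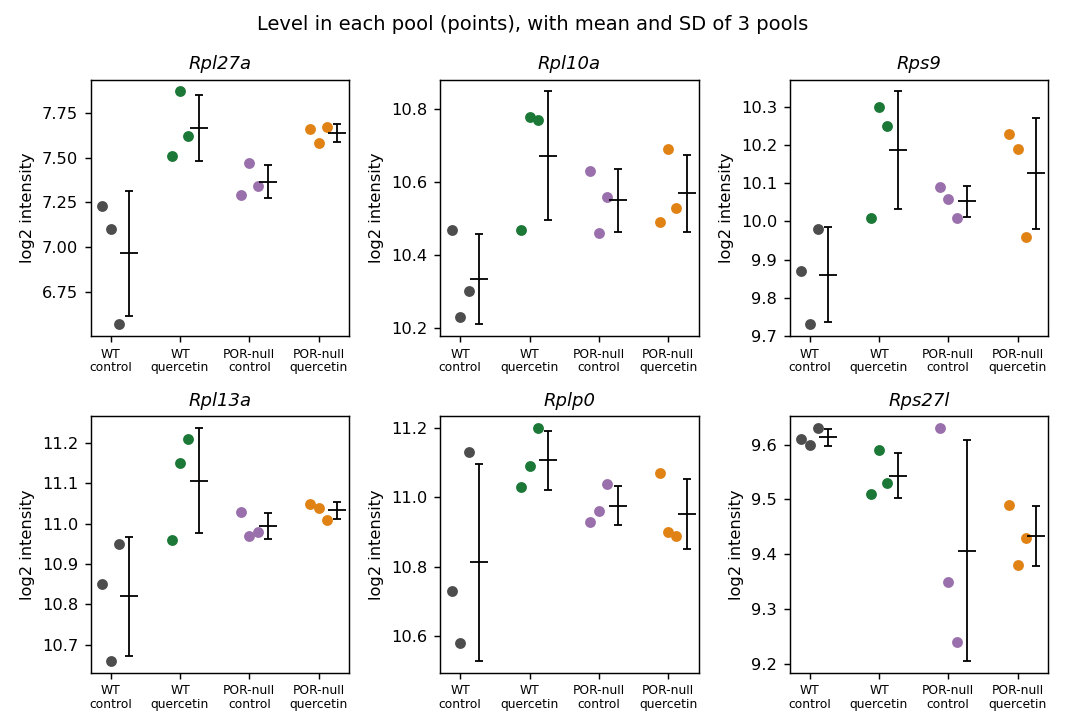
Log2 intensity of 6 genes in each pool of the 4 groups (WT, wild-type); points are pools, and the black mark and bar beside them are the mean and SD of 3 pools. Rpl27a, Rps9 and Rpl13a have wild-type quercetin pools all above the wild-type control pools, Rpl10a and Rplp0 overlap, and Rps27l lies the other way with 9.51 to 9.59 on quercetin and 9.60 to 9.63 on the control diet.

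By structural role, the 20 large subunit genes had a median difference of 0.233 with 19 above 0, and 9 reached an unadjusted p under 0.05. The 20 small subunit genes had a median of 0.158, again with 19 above 0 and 9 at that p. Of all genes, 57.1% lay above 0 and 4.33% reached that p in the higher direction, in which all of these members lay. The proteins at the mRNA entry channel and decoding site (Rps2, Rps3 and Rps15) had a median of 0.29, and Rps15, which sits near the decoding site, differed by 0.29 ± 0.101 (adjusted p = 0.43 by limma). Those at the mRNA exit (Rpsa, Rps14, Rps26 and Rps28) had a median of 0.158, with Rps26 at 0.36 ± 0.116 (adjusted p = 0.408). The 5 measured members of a list for the peptide exit tunnel and its surroundings (Rpl4, Rpl19, Rpl22, Rpl35 and Rpl39) had a median of 0.223, with Rpl35 at 0.34 ± 0.13 (adjusted p = 0.472).

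Rplp0, the base of the P stalk, had 10.73, 10.58 and 11.13 in the wild-type control pools and 11.03, 11.09 and 11.20 on quercetin. Control pool 3 lay within the range of the quercetin pools (0.29 ± 0.116, adjusted p = 0.486 by limma). Rplp2, its acidic partner, differed by 0.06 ± 0.131. Rpl11, which with 5S RNA can bind and restrain the p53 ligase MDM2, had 9.90, 9.45 and 9.83 on the control diet and 9.74, 9.99 and 10.20 on quercetin, with overlap (0.25 ± 0.133, adjusted p = 0.625). Rpsa, which also serves as a laminin receptor, differed by 0.15 ± 0.147 and had the widest spread between pools of a group of all members (pooled SD 0.219, against 0.05 for Rpl39l, the narrowest).

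The 6 paralogs had a median of 0.022, with 3 of 6 above 0. Rps27l, a p53 target, had 9.61, 9.60 and 9.63 on the control diet and 9.51, 9.59 and 9.53 on quercetin. It was the 1 member whose quercetin pools all lay below the control pools, as 4.91% of genes did, but the difference was small (-0.07 ± 0.092). Its other 2 probe sets gave -0.04 and 0.02. Rpl22l1, the paralog that Rpl22 represses, differed by 0.17 ± 0.114, and Rpl22 by 0.11 ± 0.129. Rpl7l1 differed by -0.02 ± 0.088 and Rps4l by -0.03 ± 0.112. The remaining members below 0 were Rps6, the substrate of S6 kinase (-0.09 ± 0.141), and Rpl12 (-0.03 ± 0.113).

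The probe sets of Rps6 and Rpl12 were dim for this family, with means of 6.06 and 5.90. The 34 members with a mean above 8, a split chosen after the values were seen, had a median of 0.247 with 33 above 0 and 18 at an unadjusted p under 0.05 in the higher direction. Over all 2250 genes with a mean above 8, these members included, the median was -0.043, 3.64% reached that p in the higher direction and 11.2% in the lower. Those genes share the cut but were not matched to the members in level. The 14 dimmer members had a median of 0.065. Some were dim because the choice of probe set avoided brighter ones of the cross-hybridising _x_at type. Rpl41 was read at a mean of 4.19 (difference 0.02), where _x_at probe sets at 12.56 and 12.65 differed by 0.06 and 0.14. Rps24 was read at 6.27 (0.07), where its _x_at probe sets, with means from 8.65 to 11.23, differed by 0.28 to 0.36. How far the dim probe sets follow their mRNA was not tested. Over all 100 single-symbol probe sets of the members, 87 lay above 0. Of the 23 members with several probe sets, 15 had them all on the same side of 0. Ribosomal protein genes have many near-identical processed pseudogenes, and whether probes also caught these was not tested.

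The members' shift was not shared by all pools of a group. Averaged over the 48 members, each centred on its own 12-pool mean, the wild-type control pools stood at -0.056, -0.232 and -0.019 and the wild-type quercetin pools at -0.059, 0.148 and 0.155. Wild-type control pool 2 held the lowest value of 30 members, and quercetin pools 2 and 3 the highest of 14 and 21. Wild-type quercetin pool 1 lay with the control pools. Without control pool 2, 6 members instead of 19 reached an unadjusted p under 0.05 in the higher direction, without quercetin pool 3 it was 8, and without quercetin pool 2 it was 11. The median was 0.262 without quercetin pool 1. Without the 3 pools highest in smooth muscle genes (wild-type control pool 3 and the first POR-null pool on each diet), it was 0.247 with 44 of 48 above 0 and 25 at that p. Members varied together from pool to pool: within groups, the median correlation between 2 members was 0.46 over 12 pools, and 0.73 between the 34 brighter ones.

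**Figure D3:**
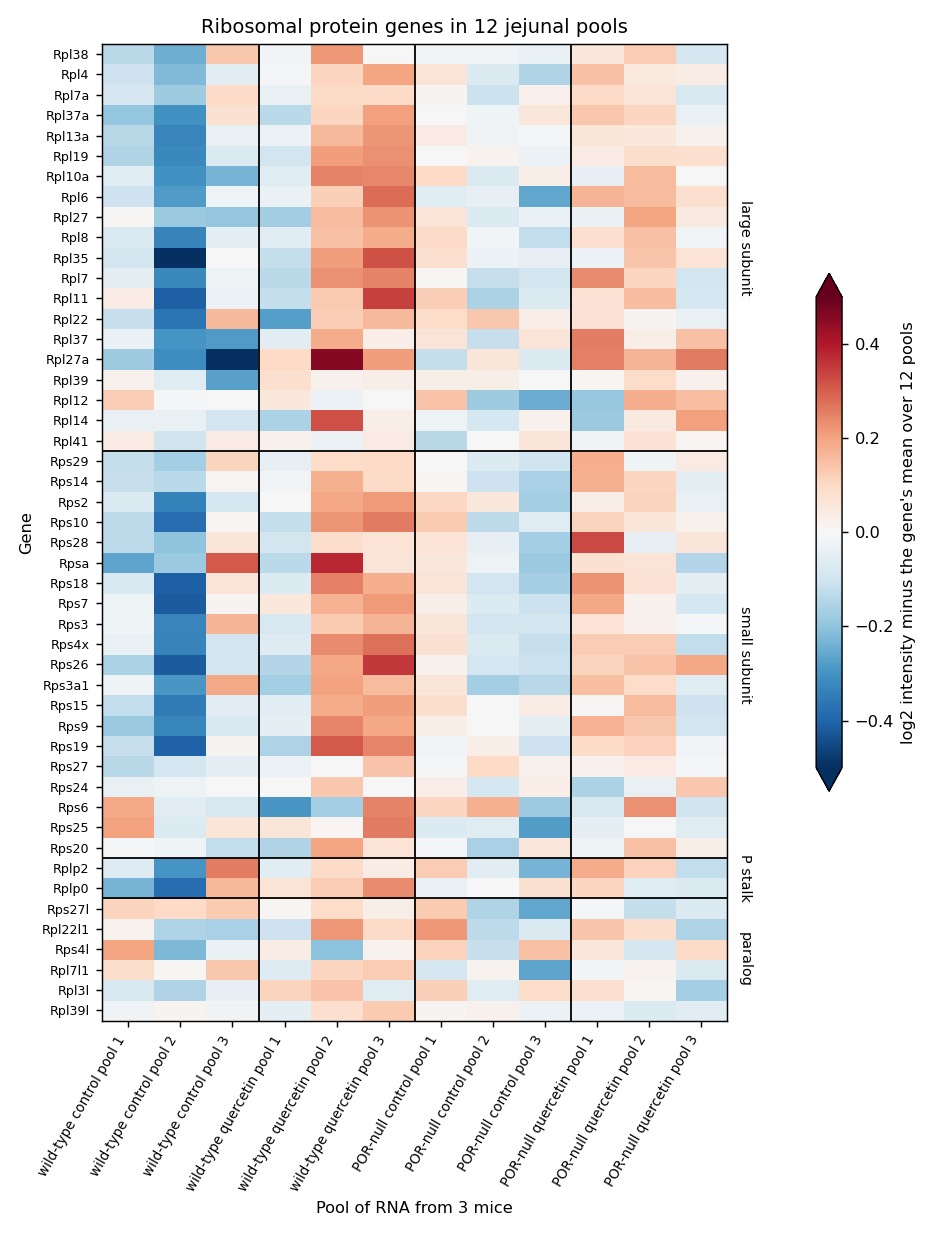
Each row is a gene, each column a pool of RNA from 3 mice, and colour is the log2 intensity minus the gene's mean over 12 pools, with values beyond 0.5 either way drawn at the end colours. Wild-type control pool 2 is blue in most rows, wild-type quercetin pools 2 and 3 are red in most rows, and wild-type quercetin pool 1 is pale; paralogs at the bottom follow less.

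Some lists of cell type markers moved with the members over the wild-type pools, and others did not. The 24 measured crypt and proliferation genes averaged 0.072, -0.192 and 0.043 in the wild-type control pools and -0.01, 0.128 and 0.163 on quercetin, so control pool 2 was lowest and quercetin pools 2 and 3 highest there too. Their median diet difference in wild-type mice was 0.093 with 19 of 24 above 0, over a range of -0.103 to 0.373. At the upper end of that range, Mki67, a proliferation antigen, differed by 0.37 ± 0.18 (adjusted p = 0.584 by limma). The 7 Paneth cell genes averaged -0.044, -0.263 and 0.127 on the control diet and -0.091, 0.197 and 0.344 on quercetin. The 13 enterocyte genes ran the other way, at 0.167, 0.102 and -0.069 on the control diet and 0.073, -0.134 and -0.17 on quercetin. The 12 T cell genes lay at -0.21, -0.264 and -0.163 on the control diet and 0.05, 0.152 and 0.142 on quercetin, with 12 of 12 above 0. In POR-null mice 3 of these 12 lay above 0. The part of these cell types in the members' difference was not tested.

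**Figure D4:**
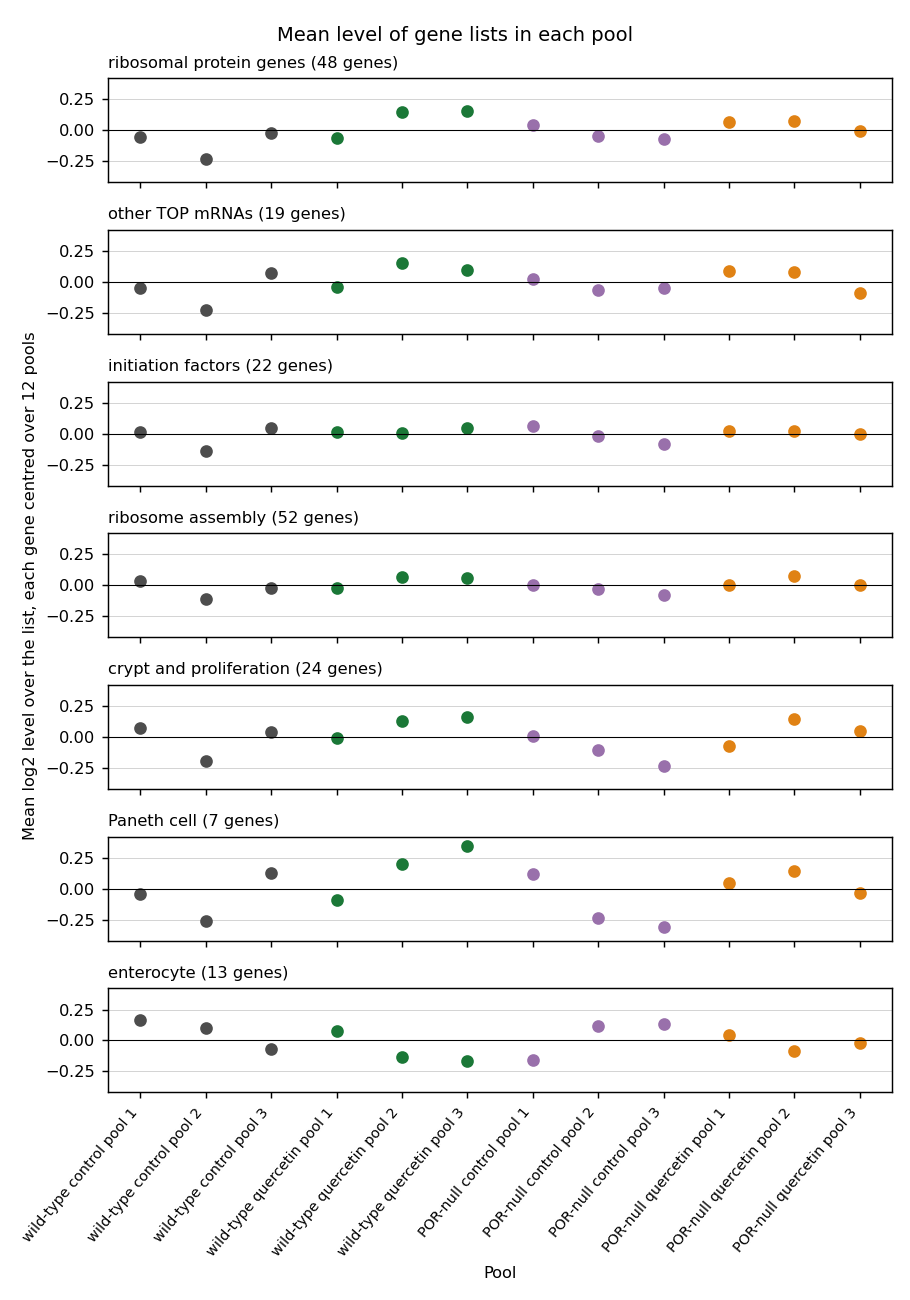
Mean log2 level of 7 gene lists in each pool, each gene centred over 12 pools, with pools coloured by group. The ribosomal protein genes stand lowest in wild-type control pool 2 (-0.232) and highest in wild-type quercetin pool 3 (0.155); the crypt and Paneth lists show the same 2 pools low and high among the wild-type pools, and enterocyte genes are low in wild-type quercetin pool 3 (-0.17).

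Other genes of protein synthesis were described in the same comparison. No gene of these lists passed the test. Of all genes, 57.1% lay above 0 with a median of 0.02. An unadjusted p under 0.05 was reached by 4.33% of genes in the higher direction and 4.54% in the lower. Among 19 further TOP mRNAs and elongation genes, 17 lay above 0 with a median of 0.107, and 2 reached an unadjusted p under 0.05: Gas5, a non-coding TOP RNA that hosts snoRNAs (0.59 ± 0.174, adjusted p = 0.37 by limma), and Eif3h, an initiation factor subunit (0.32 ± 0.12, adjusted p = 0.456). Eef1a1, which carries aminoacyl-tRNA to the ribosome, differed by 0.18 ± 0.083, and Eef2, the translocase, by 0.04 ± 0.1. Of 52 ribosome assembly genes 41 lay above 0, with a median of 0.077. Of 22 initiation factors 14 lay above 0 (63.6%, near the share of all genes), with a median of 0.068. An unadjusted p under 0.05 was reached by 1 of them in the higher direction and 1 in the lower. The higher one was Eif2s2, the beta subunit of eIF2, which differed by 0.33 ± 0.084 (adjusted p = 0.3). The 16 genes of RNA polymerase I and its factors, which make ribosomal RNA, had a median of 0.052.

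The 22 genes of MYC and mTOR signalling had a median of -0.005 with 9 above 0, and Myc differed by -0.28 ± 0.127 (adjusted p = 0.569 by limma). The 12 measured genes of ribosome stress and p53 response had a median of -0.008 with 4 above 0. Fau, a ribosomal protein gene outside the symbol rule, differed by -0.01 ± 0.086. The 5 measured members often used as PCR reference genes (Rplp0, Rpl13a, Rps18, Rpl19 and Rps9) had a median of 0.293. An unadjusted p under 0.05 was reached by 5 of 5 in the higher direction, where 4.33% of all genes reached it. Their mean was -0.157, -0.353 and 0.009 in the wild-type control pools and -0.033, 0.199 and 0.213 on quercetin, so the pools differed within each diet. Other probe sets of Rps9 and Rpl13a included values below 0, as given above. Rps18 differed by 0.26 ± 0.123 (adjusted p = 0.571 by limma) and Rpl19 by 0.30 ± 0.094 (adjusted p = 0.391).

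In POR-null mice the same diets were compared. No member passed the test, and 0% of all probe sets did. The median was 0.073 with 39 of 48 above 0, against 0 and 49.2% for all genes. In the higher direction 1 member reached an unadjusted p under 0.05, where 2.04% of genes did, and 0 in the lower, where 2.06% did. That member was Rpl6, a large subunit protein, with 10.38, 10.40 and 10.18 on the control diet and 10.61, 10.60 and 10.52 on quercetin. Its groups did not overlap (0.26 ± 0.098, adjusted p = 0.995 by limma), and the wild-type difference was also 0.26 ± 0.098. Rpl27a had 7.29, 7.47 and 7.34 on the control diet and 7.66, 7.58 and 7.67 on quercetin, again without overlap (0.27 ± 0.14, adjusted p = 0.995). Rps26 (0.21 ± 0.116) and Rpl19 (0.07 ± 0.094) also did not overlap, and these 4 members compare with 4.2% of all genes. Rps14, at the mRNA exit, differed by 0.17 ± 0.087 in both genotypes.

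At the other end, Rpl3l, a striated muscle paralog, differed by -0.08 ± 0.09, Rpl22 by -0.07 ± 0.129, Rpl39l by -0.05 ± 0.072 and Rps27 by -0.02 ± 0.075. Rpl10a (0.02 ± 0.101), Rplp0 (-0.02 ± 0.116), Rps15 (-0.02 ± 0.101) and Rpl13a (0.04 ± 0.089) lay near 0. The POR-null pools averaged 0.042, -0.047 and -0.072 on the control diet and 0.072, 0.075 and -0.008 on quercetin, so POR-null quercetin pool 3 lay within the range of the controls. The median was 0.042 without POR-null quercetin pool 2 and 0.049 without POR-null control pool 3. The crypt genes had a median of 0.118 with 24 of 24 above 0 here, the other TOP mRNAs one of 0.043 and the assembly genes one of 0.062.

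Whether the diet difference itself depended on genotype was tested as an interaction, coded as the POR-null minus the wild-type difference. No member passed, and 0% of probe sets did. The median over members was -0.115 with 12 of 48 above 0, against -0.017 and 45.1% for all genes. An unadjusted p under 0.05 was reached by 0 members in the higher direction, where 2.28% of genes reached it, and by 3 in the lower, where 2.95% did: Rpl10a (-0.32 ± 0.143, 95% interval -0.625 to -0.015), Rpl27a (-0.43 ± 0.197, interval -0.851 to -0.009) and Rps15 (-0.31 ± 0.143, interval -0.615 to -0.005), each with an adjusted p of 0.956 by limma. For Rpl6 and Rps14 the interaction was 0, with intervals of -0.297 to 0.297 and -0.261 to 0.261 that span both directions. Without wild-type control pool 2 the members' median interaction was -0.056, without wild-type quercetin pool 2 it was -0.075, and without wild-type quercetin pool 1 it was -0.196. The count of 3 in the lower direction was 10 without wild-type quercetin pool 1, 0 without wild-type quercetin pool 2, POR-null quercetin pool 1 or POR-null quercetin pool 3, and 1 when control pool 2 or quercetin pool 3 of the wild-type mice, or POR-null control pool 1 or 3, was left out. It was also 1 with a replicate block. The 12 T cell genes had a median interaction of -0.403 with 0 above 0 and 6 at that p in the lower direction, and the 24 crypt genes one of 0.037 with 17 above 0. Their part in the members' values was not tested.

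Averaged over both genotypes, the diet difference had a median of 0.133 over members with 45 of 48 above 0, against 0.012 and 55.8% for all genes. No member passed the test, as 0.00884% of probe sets did, and 19 reached an unadjusted p under 0.05 in the higher direction and 0 in the lower, where 3.76% and 4.14% of genes did. Rpl27a (0.48 ± 0.099, adjusted p = 0.341 by limma), Rpl6 (0.26 ± 0.07, adjusted p = 0.547) and Rps26 (0.28 ± 0.082, adjusted p = 0.558) had the smallest p. The count of 19 was 8 without wild-type control pool 2 or wild-type quercetin pool 3, 9 without wild-type quercetin pool 2, and between 10 and 12 when any of 4 POR-null pools was left out (numbers 2 and 3 on the control diet, 1 and 2 on quercetin).

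**Figure D5:**
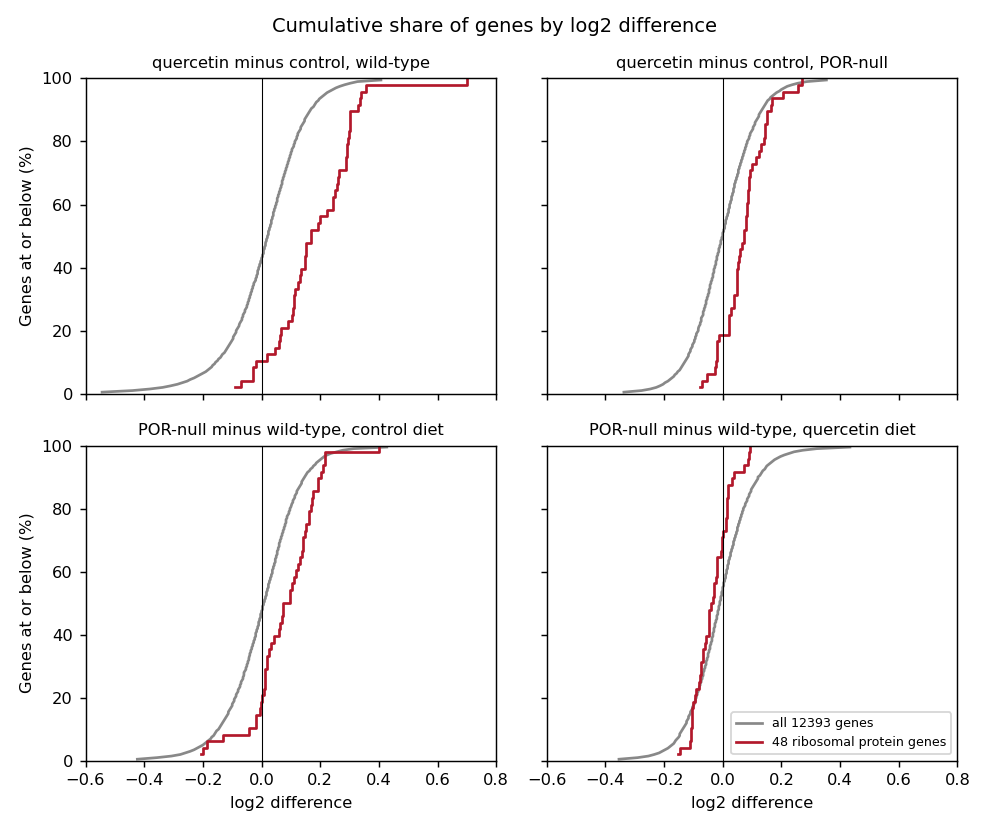
Cumulative share of genes (%) at or below each log2 difference, for the 48 ribosomal protein genes (red) and all 12393 genes (grey), in 4 comparisons. The red curve lies to the right of the grey in the diet comparison of wild-type mice (medians 0.168 and 0.02), less so in POR-null mice (0.073 and 0) and on the control diet between genotypes (0.085 and 0.007), and slightly to the left on the quercetin diet (-0.037 and -0.01).

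The genotypes were compared on each diet. These comparisons use the same pools as those above, so wild-type control pool 2 enters here too. On the control diet, no member passed the test and 0% of probe sets did. The median POR-null minus wild-type difference was 0.085 with 39 of 48 above 0, against 0.007 and 52.6% for all genes. Without wild-type control pool 2 it was 0.023 with 27 above 0, without POR-null control pool 1 it was 0.037, and without wild-type control pool 3 it was 0.141. The 12 T cell genes had a median of 0.313 in this comparison, with 12 above 0 and 8 at an unadjusted p under 0.05, and the 24 crypt genes one of -0.078 with 4 above 0. Their part in the members' values was not tested. An unadjusted p under 0.05 was reached by 3 members in the higher direction (3.1% of genes) and 1 in the lower (3.17%). The 3 were Rpl27a (0.40 ± 0.14), Rps15 (0.22 ± 0.101) and Rpl10a (0.22 ± 0.101), with adjusted p of 0.702, 0.818 and 0.818 by limma. Rpl37 differed by 0.21 ± 0.098. In 6 members (Rpl13a, Rpl19, Rpl27a, Rps15, Rps27 and Rps9) all POR-null control pools lay above all wild-type control pools, where 5.25% of genes did.

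The lower one was Rps27l, with 9.61, 9.60 and 9.63 in wild-type and 9.63, 9.35 and 9.24 in POR-null control pools. POR-null pool 1 equalled the highest wild-type pool, and the other two lay lower (-0.21 ± 0.092, adjusted p = 0.79 by limma). Rpl7l1 differed by -0.19 ± 0.088, Rps25 by -0.20 ± 0.095 and Rpl12 by -0.13 ± 0.113.

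On the quercetin diet, no member passed and 0% of probe sets did. The median was -0.037 with 14 of 48 above 0, against -0.01 and 45.2% for all genes. Without wild-type quercetin pool 1 the median was -0.123, and without wild-type quercetin pool 3 it was 0. No member reached an unadjusted p under 0.05 in either direction, as 1.84% of genes did in the higher and 2.16% in the lower. Rps27l had 9.51, 9.59 and 9.53 in wild-type and 9.49, 9.38 and 9.43 in POR-null pools, without overlap (-0.11 ± 0.092). Rps25 also did not overlap (-0.15 ± 0.095), and 5.54% of genes lay lower without overlap. Rplp0 differed by -0.15 ± 0.116, Rpl37 by 0.09 ± 0.098 and Rps28 by 0.09 ± 0.107. Averaged over diets, the median genotype difference was 0.021 with 35 of 48 above 0, against -0.002 and 49% for all genes, and no member passed (0% of probe sets). Its direction turned when 1 pool was left out, to -0.014 without wild-type control pool 2 (21 above 0) and to -0.013 without wild-type quercetin pool 1 (16 above 0). It lay between 0.007 and 0.051 without any 1 of the other 10 pools, with 0.051 without POR-null quercetin pool 3. An unadjusted p under 0.05 was reached by 1 member in the higher direction (2.33% of genes) and 3 in the lower (2.74%), and Rps25 (-0.17 ± 0.067) and Rps27l (-0.16 ± 0.065) had the smallest p, with adjusted p of 0.911 and 0.958 by limma.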

How the data were processed

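Deposited values were already on the log2 scale, 1 intensity per probe set, as made by the authors. MAS5 and RMA are both named in the submitters' processing notes, with no role for either, and which of them gave these numbers is, in the sources used here, not given. No further normalisation was applied. The table's 22690 probe sets include 64 controls, and the other 22626 were tested. The platform annotation gives 1 gene symbol to 20380 of them, several to 691 and none to 1555. For each gene the brightest single-symbol probe set on average was used, avoiding the cross-hybridising _x_at type where there was a choice (5 members had none).

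Group means were modelled over the 12 arrays together in limma (version 3.58.1, R 4.3.3), with 8 residual plus 6.75 prior degrees of freedom. There were 7 two-sided contrasts, each with Benjamini-Hochberg adjustment over all 22626 probe sets. The code was tested on simulated data. Differences are log2 ± SE of the model. Lists are described by counts and medians, with no test. Python 3.11.15 with matplotlib 3.10.9 drew the figures.

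The members, lists and alternatives were chosen with earlier results of these data known. The rule for naming took the 4 members with the smallest p in each direction of each contrast. It added fixed reference, stalk, stress and paralog genes, and the members with the highest or lowest spread. Not all of these are given for every contrast. Some are left out for genotype on the quercetin diet, the interaction and the average differences. Genes named outside that rule, such as Rpl35, Rps2, Rps7, Rpl4 and Rps3, were chosen after their values were seen or to list a group. Alternatives were 2 normalisations, a filter on dim probe sets, fit choices, other probe set rules and leaving out each pool.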

Additional observations from a re-analysis of the deposited data

How the results depend on the processing

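The number of members past the test was 0 in all 7 comparisons under all 25 alternatives run (22 planned, 3 added after seeing the data). The median difference of the members in wild-type mice on quercetin was 0.262 without wild-type quercetin pool 1, more than the replicate spread (SD 0.091) from 0.168. Leaving out 1 pool at a time gave medians of 0.133 to 0.262 there, 0.042 to 0.107 for the diet in POR-null mice, 0.023 to 0.141 for genotype on the control diet, -0.123 to 0 for genotype on the quercetin diet, -0.196 to -0.056 for the interaction, 0.093 to 0.174 for the average diet and -0.014 to 0.051 for the average genotype difference. The count at an unadjusted p under 0.05 in the higher direction in wild-type mice ranged from 6 to 25. The model uses 1 spread per gene for all groups. The members' mean had SDs of 0.114 and 0.121 in the wild-type groups and 0.06 and 0.047 in the POR-null groups. With only the arrays compared, the count was 15 instead of 19 in wild-type mice and 3 instead of 1 in POR-null mice. Centring arrays on their medians gave 13 instead of 19 in wild-type mice and 10 instead of 19 for the average diet difference. The members' median in wild-type mice was then 0.132 instead of 0.168. Quantile normalisation went the other way, with 20 members at that p and a median of 0.19 in wild-type mice. For the average diet difference it gave 21 members. Array medians, which centring makes equal, were 5.99, 5.96 and 5.94 in the wild-type control pools and 5.99, 6.00 and 6.01 on quercetin. Why they differed was not tested. Samples with the same replicate number did not deviate together (r -0.14 to 0.19 for 18 pairs, -0.26 to 0.24 for 36 pairs of different number), and the fit with a replicate block left the median at 0.168 with 18 instead of 19 members at that p, and 8 instead of 3 probe sets past the test. Of the named members' values, none of which passed the test under any alternative, 2886 kept their sign, 123 took the opposite sign and 6 had 0 as 1 of the 2 values. Many of these signs could not change. Another estimate of the spread, the replicate block, or leaving out a pool outside the comparison leaves a difference as it was. The count kept is thus no measure of robustness. Over all probe sets, the number past the test moved more, with no member among them. It went from 0 to 24 for genotype on the quercetin diet with only the arrays compared, and from 0 to 20 for the average genotype difference with array weights and 4 with a trend and robust variance. Without POR-null control pool 3 it went from 0 to 24 and 19 for genotype on the control and quercetin diets and to 47 for their average, the highest of any pool left out. Leaving out 1 pool gave 0 to 23 for the diet in wild-type mice (3 with all pools) and 1 to 8 for the average diet difference (2 with all pools), both highest without wild-type quercetin pool 1. Without the 3 pools highest in smooth muscle genes these were 15 and 6.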

Other observations

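A further 102 probe sets carry several gene symbols that include a ribosomal protein, and 30 such symbols occur on these alone. They were left out above and looked at after the other values were seen. In wild-type mice their median diet difference was 0.193 with 95 of 102 above 0, where 57.1% of all genes lay above 0, and 32 reached an unadjusted p under 0.05 in the higher direction, where 4.33% of genes did. No gene is named from them.

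Within groups, 35 of the 48 members correlated at over 0.5 with the mean of the others across 12 pools. Rpl39 (-0.33) and Rpl27a (-0.15) were the lowest. The genes outside the family most like its mean were Itpka (0.961), Tsn (0.953), Mcam (0.945), Thumpd1 (0.94) and Exosc7 (0.932), where the median over all other genes was -0.012. The points share their arrays and pools, and these are descriptions without a test.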
